A study of Mus musculus with 4 samples.

Results

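The genes described here encode the enzymes that make cholesterol and fatty acids, the SREBP regulators that switch those enzymes on, and a pair of cholesterol exporters. They are 36 named genes among 21631 protein-coding genes on mouse chromosomes 1 to 19 and X. For each gene, the H3K27ac peaks overlapping the gene or the 20000 bp on each side were collected, with peaks within 1000 bp of an annotated gene end counted apart. Together these windows held 199 peaks of the 56285 in the list, and no windows of different members overlapped.

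H3K27ac, the acetylated lysine of histone H3 that marks active promoters and enhancers, had been profiled by ChIP-seq in cultured Th17 cells, a class of IL-17-secreting helper T cell. The cells were grown from naive CD4+ T cells of C57BL/6 mice and were treated for 72 h. They received anti-CD3ε at 0.25 µg/mL and anti-CD28 at 1 µg/mL, which engage the T cell receptor and its co-receptor. They also received IL-6 at 20 ng/mL and TGF-β, which the treatment labels give as 0.1 ng/mL and the growth protocol as a range. The names in the list share a prefix with the letters WT_Ddx5, which the labels used here do not explain. There were 2 H3K27ac libraries and 2 of input DNA, from independent biological replicates, and all carry this treatment, so there is no second cell state to compare with. The list holds positions alone, without score, fold enrichment or value per library, so the depth is unknown and no value below has a replicate error.

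Cells make cholesterol from acetyl-CoA through mevalonate, squalene and a chain of sterols, and fatty acids by carboxylation of acetyl-CoA followed by chain building, desaturation and elongation. When membranes run low in sterols, SCAP escorts SREBP proteins out of the endoplasmic reticulum, where INSIG proteins otherwise hold them, and the cleaved SREBP turns on genes of both routes. Activated T cells are known to draw on this program to build membranes, and sterol intermediates are known ligands of the Th17 nuclear receptor RORγt. Excess cholesterol leaves through ABCA1 and ABCG1, whose genes are targets of the oxysterol receptors LXR.

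The marks of the labelled cell type were present. All 4 Th17 genes examined (Il17a, Il17f, Il23r and Ccr6) and both T cell genes (Cd3e and Cd4) had gene-end peaks. With the flanks, acetylated length among the 6 ran from 15946 bp at Cd3e to 25062 bp at Il23r. The part inside the gene ran from 3210 bp at Il17a to 17760 bp at Il23r, and was 3460 bp at Cd3e. At Cd3e the widest peak lay 10520 bp outside the gene, near ends of Cd3g and Cd3d. Blk, Adgre1, C1qa and Ttr, which mark B cells, macrophages and liver, had no peak in their windows. The B cell gene Pax5 had 554 bp and the liver gene Alb 413 bp, without a gene-end peak. Of the fat cell genes, Adipoq had no gene-end peak and 6337 bp in its flanks, and Plin1 had a gene-end peak and 2240 bp in all.

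Almost all members were acetylated at an end. A gene-end peak was present at 33 of the 36 members (91.7%), against 53.8% of all protein-coding genes. The 3 without were the squalene synthase gene Fdft1, the SREBP retention factor gene Insig2 and the acetyl-CoA carboxylase gene Acacb. Every member had at least 1 peak in its window, as did 70.9% of all genes. Just inside the limit of 1000 bp lay Srebf1, with its nearest peak 664 bp from an annotated end, and Pmvk, at 822 bp. Just outside were Fdft1, at 2190 bp, and Insig2, at 2615 bp, and Acacb was farther out at 10276 bp. Both ends were marked in 6 of the 36 members (Mvd, Sqle, Tm7sf2, Srebf1, Scd1 and Scd2), against 8.77% of all genes. Only genes with a gene-end peak can have both marked. Of those, both were marked in 6 of 33 members and in 1898 of 11637 genes. No test was made of these counts, since the members were named together and genes are not replicates.

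**Figure D1:**
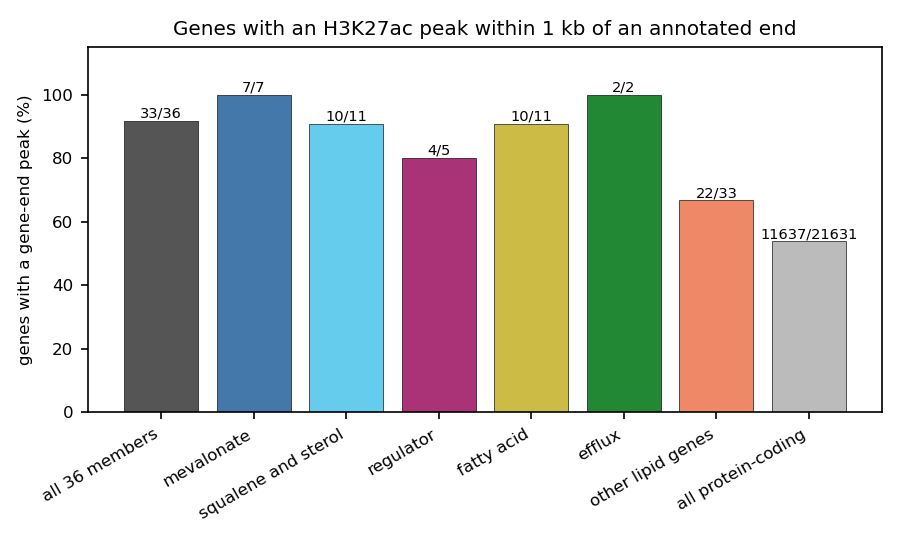
Percentage of genes with an H3K27ac peak within 1000 bp of an annotated gene end (y axis), for the 36 members, for their 5 roles, for 33 other lipid genes and for all protein-coding genes; the numbers above the bars are genes with such a peak over genes in the set. The members stand at 91.7%, the other lipid genes at 66.7% and all protein-coding genes at 53.8%.

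The members had a median of 5418.5 acetylated bp in the gene and its flanks, with a range of 1308 to 20178 bp, in a median of 5 peaks. All protein-coding genes had a median of 2399 bp in 2 peaks, and the 11637 genes with a gene-end peak had 4784 bp in 4 peaks. Each gene was also placed by percentile among the 50 genes nearest to it in length. The members' median percentile was 68, as it was over all genes with a gene-end peak. Above the 90th percentile lay 8 members (Fdft1, Tm7sf2, Srebf1, Srebf2, Scd1, Scd2, Elovl5 and Elovl6), or 22.2%, against 9.73% of all genes and 16.2% of genes with a gene-end peak. Below the 50th lay Acat2, Mvk, Nsdhl, Hsd17b7, Fads1 and Fads2.

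**Figure D2:**
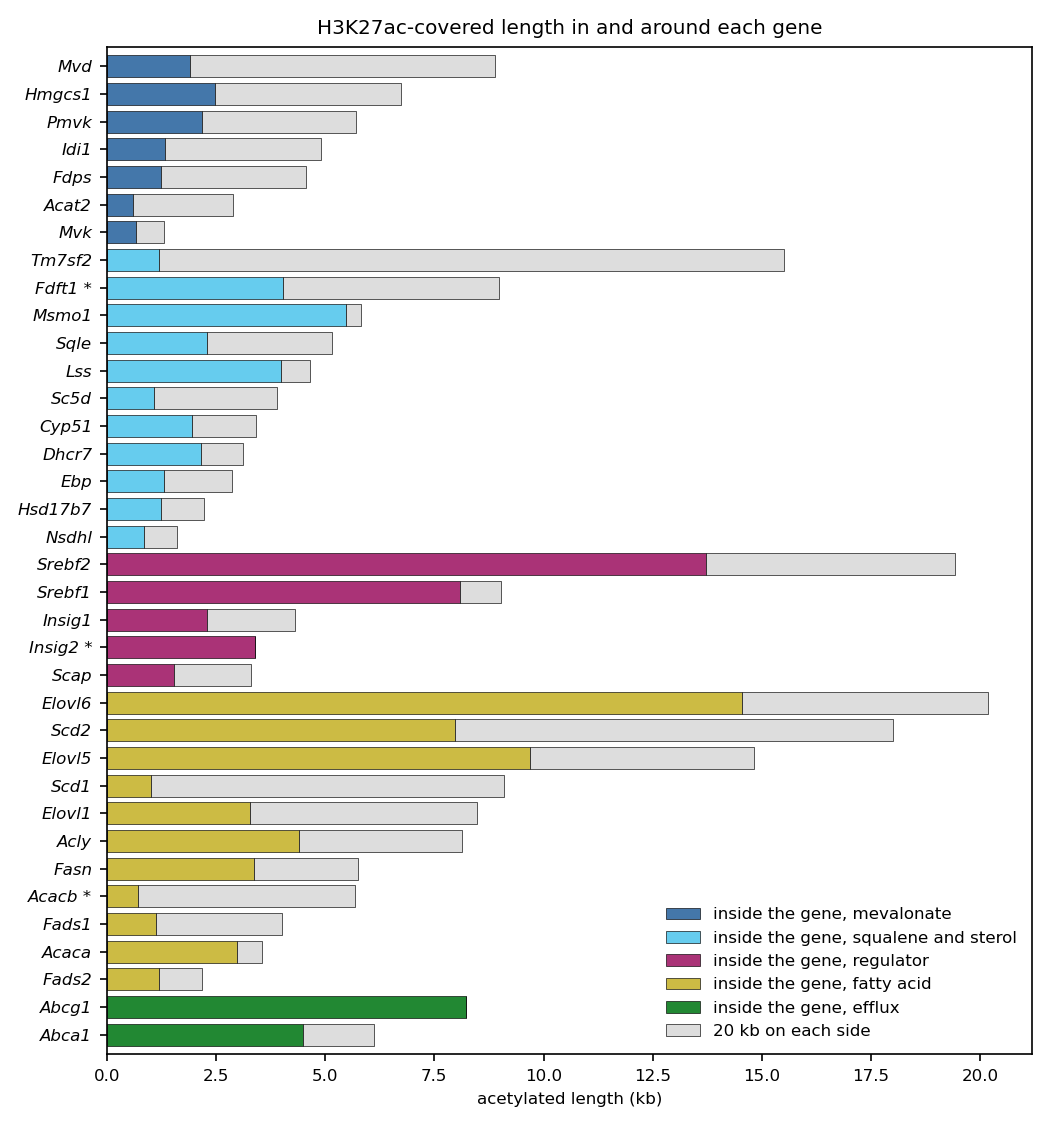
Length covered by H3K27ac peaks (x axis, kb) for each member, with the part inside the annotated gene coloured by role and the part in the 20000 bp on each side in grey; an asterisk marks the 3 members without a gene-end peak. Elovl6, Srebf2, Scd2, Tm7sf2 and Elovl5 have the longest bars, and most of that of Tm7sf2 is grey.

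Most members with a listed start of transcription had a peak over one. A RefSeq promoter table listed strand and start sites for 29 of the 36 members. In 27 of these 29 a listed start lay within 1000 bp of a peak, against 55.0% of all genes with a listed start, and in the same 27 the start base itself was inside a peak. The outer annotated start was marked in 27 of the 29, against 52.4% of genes. Of the 38 start sites listed for members, 34 were inside a peak, against 49.3% of all listed start sites, and 35 were within 1000 bp of one, against 54.4%. A peak lay at the annotated finish in 3 of the 29 (Mvd, Tm7sf2 and Srebf1), against 11.0% of genes. At Mvd the finish lies near the end of Cyba, at Tm7sf2 near Znhit2 and at Srebf1 near Rai1. The peaks over the first listed start had a median width of 1913 bp in the members and 1872 bp in all genes. They reached farther downstream than upstream in 20 of 27 members (74.1%) and in 73.0% of all genes. In the first 500 bp downstream of the start, 86.2% of bases were in a peak over the 29 members and 49.4% over all 17274 genes with a listed start, marked or not.

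**Figure D3:**
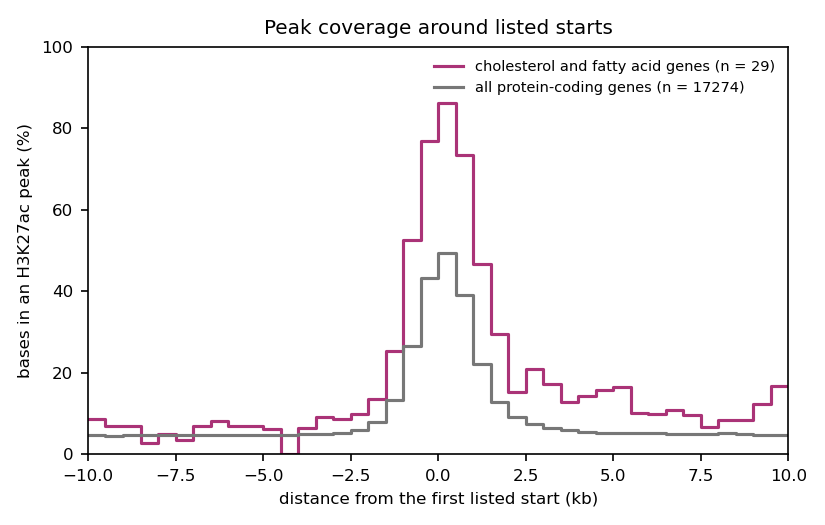
Percentage of bases inside an H3K27ac peak (y axis) in bins of 500 bp around the first listed start (x axis, kb, transcription to the right), over 29 cholesterol and fatty acid genes and over 17274 protein-coding genes. Both curves are highest in the bin just downstream of the start, at 86.2% for the members and 49.4% for all genes.

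Promoter sequences were compared too, at every listed start of the members, with or without a peak. A set of short motifs were sought on both strands, from 250 bases before to 50 after each listed start. They were the sterol regulatory element TCACNCCAC, a binding site of SREBP, the CCAAT box CCAAT of the SREBP partner NF-Y, the E-box CACGTG, the GC box GGGCGG and the nuclear receptor site AGGTCA. The CCAAT box was found in 23 of 29 members (79.3%), against 42.7% of all genes with a listed promoter. In the 100 bases just before the start, a window chosen after the data were seen, it was found in 19 members (65.5%) against 24.1% of genes. All 9 squalene and sterol genes with a listed promoter had it, as did 5 of 6 mevalonate genes, 4 of 5 regulators, 5 of 8 fatty acid genes and not Abca1, the 1 efflux gene listed. Among all genes with a peak within 1000 bp of a listed start, 41.6% had it in a promoter so marked, a share close to that of all genes. The members' counts are not limited in this way and take in every listed promoter. At Insig2 and Acacb the boxes were only at starts without a peak within 1000 bp. The members' promoters held 47 boxes in all, 43 of them before the start and 37 inside a peak. Most of the bases searched lie before the start, and 34 of the members' 38 listed starts were inside a peak. These places of the boxes were not counted over all promoters.

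The GC box was in 79.3% of members and 49.8% of genes, and in 70.1% of genes with a marked start. The E-box was in 24.1% of members, 9.02% of genes and 11.6% of genes with a marked start. The nuclear receptor site was in 24.1% of members, 16.6% of genes and 13.0% of genes with a marked start. As for the CCAAT box, shares for marked starts count only the promoters at those starts, and members' shares count every listed promoter. At Insig1 an E-box and a nuclear receptor site overlap. The members' promoters had a median GC content of 61.8%, and all promoters with a peak had 61.7%. The sterol regulatory element, in these exact letters, was found only at Hmgcs1 (3.45% of members, 1.42% of genes). The absence of these letters says nothing of SREBP at the other genes, since its sites vary.

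The sequences below, from RefSeq (GRCm38.p6), run 5′ to 3′ in the direction of transcription up to the base before the start, with CCAAT boxes on either strand and the sterol regulatory element in capitals. They are shown because they carry the element (Hmgcs1), the most boxes (Mvk) or several boxes in 1 orientation (Msmo1), or drive the sterol regulator itself (Srebf2). The Hmgcs1 bases are chr13:119690101-119690350 on the plus strand, those of Mvk chr5:114444074-114444268 (plus), of Msmo1 chr8:64733579-64733828 (minus) and of Srebf2 chr15:82147019-82147268 (plus). The Mvk sequence stops at the edge of its neighbour Mmab.
Hmgcs1: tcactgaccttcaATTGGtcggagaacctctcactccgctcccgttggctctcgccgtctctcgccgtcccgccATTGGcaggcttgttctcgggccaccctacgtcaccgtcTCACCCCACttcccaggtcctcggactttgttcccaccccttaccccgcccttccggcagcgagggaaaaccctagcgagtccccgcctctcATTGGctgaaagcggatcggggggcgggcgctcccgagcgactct
Mvk: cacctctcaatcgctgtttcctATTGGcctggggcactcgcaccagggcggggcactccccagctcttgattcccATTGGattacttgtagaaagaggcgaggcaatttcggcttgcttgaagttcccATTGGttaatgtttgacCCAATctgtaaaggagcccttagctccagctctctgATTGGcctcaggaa
Msmo1: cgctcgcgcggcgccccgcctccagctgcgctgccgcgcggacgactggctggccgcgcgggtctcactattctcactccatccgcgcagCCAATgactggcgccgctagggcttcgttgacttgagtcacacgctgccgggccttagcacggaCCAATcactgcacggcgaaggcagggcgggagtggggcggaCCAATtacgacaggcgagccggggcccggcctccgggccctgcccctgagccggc
Srebf2: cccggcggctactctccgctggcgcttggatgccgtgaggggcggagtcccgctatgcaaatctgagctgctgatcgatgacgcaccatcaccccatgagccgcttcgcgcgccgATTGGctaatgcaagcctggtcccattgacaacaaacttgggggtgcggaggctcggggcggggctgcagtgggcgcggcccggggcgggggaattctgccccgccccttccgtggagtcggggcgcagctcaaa

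All 7 mevalonate genes had a gene-end peak, and their median acetylated length was 4909 bp. More of that length lay outside than inside the gene in 6 of the 7, and Mvk was the other one. Hmgcs1, which encodes the synthase that makes HMG-CoA, had 6729 bp in 8 peaks (chromosome 13, 119690351 to 119708260). At its start a peak of 2164 bp and a peak of 1913 bp were separated by a gap of 77 bp (119690174 to 119690250). The sterol regulatory element printed above, at bases -137 to -129 from the start site (119690214 to 119690222), fell in that gap and so in no peak. Such gaps of at most 300 bp, from 500 bp upstream to 100 bp downstream of a start, were present at 4 of 35 marked start sites of members (11.4%) and at 6.87% of all marked start sites. The others were at Hsd17b7 (100 bp), Lss (76 bp) and Abca1 (112 bp).

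Mvd, the decarboxylase that closes the mevalonate steps, had the longest stretch of this group, 8894 bp in 7 peaks, of which 1905 bp lay inside the gene. Its start lay in a peak of 2421 bp and its finish in a peak of 2220 bp that is also near an end of Cyba. Pmvk, phosphomevalonate kinase, had 5713 bp in 8 peaks. Its outer start was outside any peak, with the nearest 822 bp downstream and only 162 bp wide. Its inner start, 5030 bp into the gene, was covered by a peak of 1471 bp. Idi1, which isomerises isopentenyl diphosphate, had 4909 bp, with a peak of 1827 bp over its start and its widest peak, of 2238 bp, 13782 bp upstream near an end of Wdr37.

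Fdps, which makes farnesyl diphosphate, had 4554 bp and 1 gene-end peak, of 2384 bp. Acat2, the cytosolic thiolase that condenses acetyl-CoA, had 2895 bp, with a peak of 1251 bp over its start and a wider one, of 1644 bp, 17761 bp outside the gene. Mvk, mevalonate kinase, had the least of all 36 members, a single peak of 1308 bp. That peak also covers the start of Mmab, a gene of vitamin B12 metabolism that lies head to head with Mvk. Its promoter held 5 CCAAT boxes, the most of any member. Among the 29 members with a listed start, Mvk was 1 of 6 with an end of another coding gene within 1000 bp of the annotated start. Peaks there cannot be assigned to either gene, and the share of such genes among all genes was not counted. The other 5 pairs were Tm7sf2 with Vps51, Nsdhl with Cetn2, Ebp with Porcn, Dhcr7 with Nadsyn1 and Acaca with Tada2a.

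**Figure D4:**
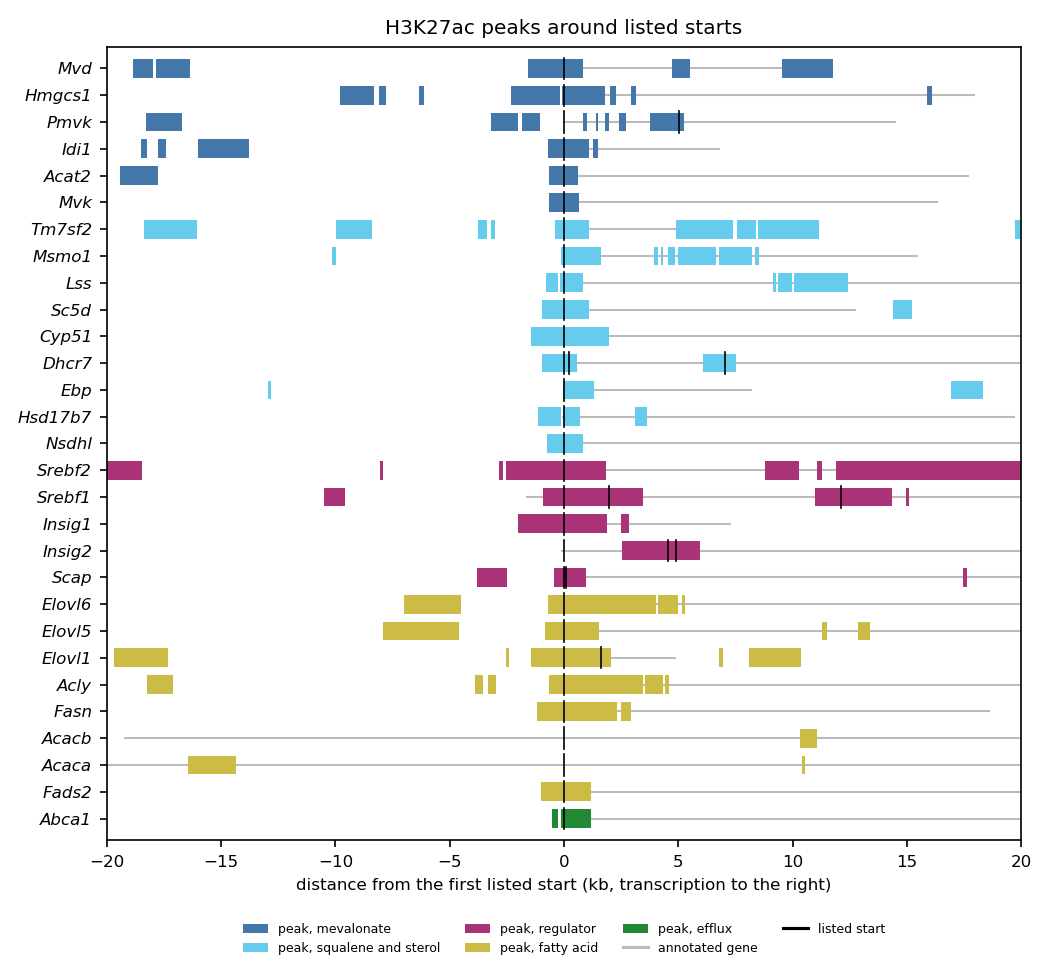
H3K27ac peaks (coloured bars) around the first listed start of 29 members, oriented so that transcription runs to the right (x axis, kb); grey lines show the annotated gene and black ticks the listed starts. Peaks cover a listed start in 27 genes, Acaca and Acacb are bare there, and at Insig2 the peak sits over the inner starts.

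Squalene and sterol genes were marked at 10 of 11 members, with a median of 3892 bp. Tm7sf2, a sterol reductase gene, had the longest stretch, 15509 bp in 10 peaks, yet only 1197 bp lay inside the gene. Its widest peak, of 3433 bp, was 14682 bp away at an end of Syvn1, and others lay at ends of Fau, Mrpl49, Znhit2, Vps51, Tmem262, Zfpl1 and Cdca5. The peak over its own start was 1485 bp wide. Fdft1, which makes squalene, had 8989 bp in 7 peaks, 4025 bp inside the gene. A peak of 3586 bp (chromosome 14, 63175912 to 63179497) ended 2190 bp inside its upper annotated end. No strand or start was listed for Fdft1, so whether this peak covers a start is not known.

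Msmo1, the sterol methyl oxidase, had most of its acetylated length inside the gene. It had 5812 bp, 5488 bp of them inside the gene, which was 35.5% covered. Its start lay in a peak of 1734 bp, and 6 further peaks lay 3950 to 8350 bp downstream of it, the widest 1667 bp. Lss, which closes squalene epoxide into lanosterol, had the same kind of layout. Its start was in a peak of 1007 bp, and 3 peaks lay 9122 to 10070 bp downstream, the widest 2352 bp and wider than those at the start.

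Sqle, the squalene epoxidase, had 5152 bp and peaks at both ends, of 2739 bp at the lower end and 137 bp at the upper. Cyp51, which demethylates lanosterol, had 1 peak, of 3409 bp, and it covered the start. Sc5d, a sterol desaturase, had 3892 bp, with a peak of 2016 bp over its start. Dhcr7, the last reductase of the route, had 3121 bp, and separate peaks covered its outer starts (1538 bp) and its inner start 7047 bp into the gene (1483 bp). The isomerase gene Ebp had 2867 bp, Hsd17b7 2233 bp and Nsdhl, on the X chromosome, 1612 bp in a single peak that also reaches Cetn2. At Ebp the peak over the start reached only 40 bp upstream of it, and both of its CCAAT boxes lay outside the peak.

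Among the regulators, the SREBP genes were the most acetylated. Srebf2, the main activator of cholesterol genes, had 19415 bp in 10 peaks (chromosome 15, 82147269 to 82205379), 13725 bp of them inside the gene. A peak of 4399 bp covered its start, and a peak of 9425 bp (82159161 to 82168585), the widest in any member window, began 11892 bp downstream of the start. Srebf2 also hosts Mir33, a microRNA known to repress Abca1. The mature miR-33-5p (chr15:82198127-82198147, plus strand, RefSeq) is printed with its seed, bases 2 to 8, in capitals.
miR-33-5p: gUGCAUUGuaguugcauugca
No peak covered it. The Mir33 hairpin lay 50853 bp into the gene and 9524 bp from the nearest peak, one of 735 bp that begins 40595 bp downstream of the start.

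Srebf1, whose alternative first exons are known to give SREBP-1a and SREBP-1c, had 9019 bp in 5 peaks, 8079 bp inside the gene. Its outer listed starts (60222581 and 60220627 on chromosome 11) lay in 1 peak of 4416 bp. The inner listed start (60210471) lay in another, of 3377 bp. The 3 listed starts were thus all acetylated. Insig1, a feedback target of SREBP that retains SCAP, had 4312 bp, with a peak of 3924 bp over its start. Scap itself had 3311 bp, with a peak of 1413 bp over its start.

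Insig2, the relative of Insig1, had a single peak of 3401 bp (chromosome 1, 121326647 to 121330047), wholly inside the gene. It covered both inner starts and stayed 2542 bp short of the outer start. The promoters differed in sequence too. The outer one had 3 CCAAT boxes, no CpG and a GC content of 46.0%, and the inner one at 121328024 had 17 CpG, 57.0% GC and no CCAAT box. Both are printed for that contrast, the bare outer promoter at chr1:121332590-121332839 and the acetylated inner one at chr1:121328025-121328274, both on the minus strand.
Insig2 outer: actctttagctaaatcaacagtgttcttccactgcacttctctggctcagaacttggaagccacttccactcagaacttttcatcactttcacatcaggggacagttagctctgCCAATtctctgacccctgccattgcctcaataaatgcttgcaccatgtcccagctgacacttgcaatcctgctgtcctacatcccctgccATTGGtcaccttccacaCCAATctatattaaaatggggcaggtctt
Insig2 inner: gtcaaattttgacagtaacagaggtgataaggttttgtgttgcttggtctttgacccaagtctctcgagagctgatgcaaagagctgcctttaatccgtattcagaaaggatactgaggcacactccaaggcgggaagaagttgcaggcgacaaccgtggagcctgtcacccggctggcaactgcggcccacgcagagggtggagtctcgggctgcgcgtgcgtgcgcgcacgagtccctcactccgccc

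Fatty acid genes had the longest stretches, by role: the median was 8142 bp, and in the ranking by length-matched genes their median percentile was 86. Elovl6, which elongates the products of fatty acid synthase, had the most of all members, 20178 bp in 20 peaks (chromosome 3, 129532386 to 129638495). A peak of 4720 bp covered its start, and 17 further peaks were spread through the gene with a summed width of 10519 bp. Elovl5, which elongates polyunsaturated chains, had 14816 bp in 14 peaks, and its widest, of 3807 bp, lay in the gene body. Elovl1, which makes very long chains, had 8476 bp, and a peak of 3508 bp covered both of its listed starts.

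The stearoyl-CoA desaturase genes Scd2 and Scd1, both on chromosome 19, differed in where they were marked. Scd2 had 17996 bp in 7 peaks and was 60.4% covered, the highest share of any member. A peak of 7630 bp lay over its lower end and a peak of 6020 bp 7737 bp outside the gene. Scd1 had 9092 bp in 7 peaks but only 1006 bp inside the gene. It had peaks of 1153 and 1931 bp at its ends, and its widest, of 3217 bp, lay 3942 bp outside. The related Scd3 and Scd4 had no peak in the gene and none at an end.

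The genes of the early steps were marked at the start. Acly, which supplies cytosolic acetyl-CoA, had 8142 bp, with a peak of 4128 bp over its start. Fasn, fatty acid synthase, had 5755 bp, with a peak of 3486 bp over its start that also lies near an end of Ccdc57. The carboxylase genes were the exception. Acaca, the form needed for fatty acid synthesis, had 3544 bp across 272017 bp of gene. Its 1 listed start (chromosome 11, 84195438) was 10387 bp from any peak, and its gene-end peak, of 854 bp, lay at the outer start shared with Tada2a. A wider peak, of 2105 bp, lay inside the gene at 84179004 to 84181108, between the outer and the listed start. Acacb, the form that curbs fatty acid oxidation, had 718 bp inside its 104441 bp, and the remaining 4967 bp lay in the lower flank, partly at ends of Ung and Alkbh2.

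Of the fatty acid desaturase genes, Fads2 had 1 peak, of 2189 bp, over its start. Fads1 had 4007 bp in 3 peaks, with a gene-end peak of 1684 bp, and its widest peak, of 2196 bp, lay 5801 bp outside the gene near ends of Tmem258 and Fen1.

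Both exporter genes had a gene-end peak and further peaks inside the gene. Abca1 had 6123 bp in 9 peaks (chromosome 4, 53030789 to 53159988). Its start was in a peak of 1318 bp, and 6 peaks with a summed width of 3216 bp lay 37176 to 43566 bp downstream. Abcg1 had 8214 bp in 6 peaks, all of them inside the gene (chromosome 17, 31057694 to 31117984). Its gene-end peak, at the lower end, was 1653 bp wide, and no strand or start was listed for Abcg1, so whether that peak covers a start is not known. Its widest peak, of 4063 bp, lay at 31072562 to 31076624.

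Over all members, the 43 gene-end peaks had a median width of 1734 bp, the 81 peaks in gene bodies 338 bp and the 75 in flanks 937 bp. The whole list, which mixes such places, had a median of 579 bp. Widths by place were not computed over all genes, so these medians are not a like comparison. Of the flank peaks, 26 lay within 1000 bp of an end of another coding gene, a share that was not counted for the flanks of all genes. The widest peak of the window was at an end of the member in 20 of 36, against 45.0% of all genes with a window peak. Only genes with a gene-end peak can be so counted, which makes it 20 of 33 members and 6895 of 11637 genes. More acetylated length lay outside than inside the gene in 17 of 36, against 62.2% of all genes with a window peak. Nearby peaks were also stitched and ranked by covered length, as in calls of super-enhancers, which set 826 long domains apart. Domains overlapped 3 of 36 members (8.33%), against 6.37% of all genes and 11.2% of genes with a gene-end peak. The domain at Tm7sf2 covered 15509 bp, that at Srebf2 17552 bp and that at Scd2 33528 bp. The last (chromosome 19, 44246260 to 44315276) reached below the window of Scd2, which held 17996 bp. Srebf2 was the 1 member in a domain with stitching limited to gaps of 5000 bp, and Scd2 the 1 member with gene-end peaks left out.

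The other genes of lipid metabolism examined were marked in part. Of 33 further genes of lipid supply, sterol handling and LXR signalling, 22 (66.7%) had a gene-end peak, and their median acetylated length was 3629 bp. The peak at Mmab is the peak of Mvk. The most acetylated bp lay in the windows of Lpcat3, a phospholipid remodelling gene, Acsl4, an acyl-CoA synthetase gene, and Nr1h3, which encodes LXRα. These held 18755, 13519 and 11051 bp, of which 9116, 9698 and 4479 bp lay inside the gene. Gene-end peaks were also present at Nr1h2, which encodes LXRβ, at Mbtps1 and Mbtps2, whose proteases cleave SREBP, and at Mylip. The 11 genes without were Me1, Elovl2, Elovl3, Scd3, Scd4, Ch25h, Cyp27a1, Cyp7b1, Mlxipl, Thrsp and Abcg4. Elovl2 and the oxysterol and bile acid enzyme genes Ch25h, Cyp27a1 and Cyp7b1 had no peak in their windows at all.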

How the data were processed

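The labels name 2 H3K27ac and 2 input DNA libraries of Th17 cells. The authors deposited 1 peak list with a chromosome, start, end and name per peak. Bowtie2 2.3.4.1, SAMtools 1.9, MACS2 2.2.6, deepTools and GRCm38 (mm10) are named, per the submitters' processing notes, and MACS used input DNA of each replicate, per the labels. The threshold and any pooling of replicates are not given in the sources used. Starts were taken as counted from 0, since the smallest difference of end and start was exactly 100 bp (787 of the peaks used), and are printed counted from 1. Of 56285 peaks, 56284 on chromosomes 1 to 19 and X were used.

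Gene positions, strands, start sites, promoters and miRNAs came from RefSeq tables of GRCm38.p6, which give no exons. All 36 members matched by symbol, and 29 had a listed start. An overlap was at least 1 bp. Lengths in a window were clipped to it, and widths of peaks were not. Domains joined peaks across the gap limit usual for super-enhancers; they counted for a gene they overlapped, and they lay above the point of slope 1 of the scaled ranked curve (13241 bp). The list has no values per library, so no test was run, and counts are set beside those of all protein-coding genes. The members and lists were chosen with earlier results of these data known. All members were named, and the 3 longest per role, members without a gene-end peak and owners of a window's widest peak were described first; other values were chosen after they were seen. The overlap functions were checked on simulated peaks. Python 3.11.15, numpy 2.4.6, pandas 2.3.3 and matplotlib 3.10.9 were used.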

Additional observations from a re-analysis of the deposited data

How the results depend on the processing

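The count of 33 members with a gene-end peak ranged from 28 to 34 over 6 alternatives, and over 5 of these the share of all genes ranged from 43.7 to 57.2%. It was 28 with peaks placed by their midpoint (48.0% of all genes), where Elovl1, Elovl6, Srebf1, Acly and Fasn were lost, 31 with a window of 500 bp, and 34 with 2500 bp, where Fdft1 was gained. With peaks of at least 1000 bp it was 30. The members' median acetylated length was 4084 bp with flanks of 5000 bp, 7815.5 bp with 50000 bp and 2232 bp inside the gene. The median inside the gene was 704 bp over all genes and 1496 bp over genes with a gene-end peak. The members' median was 4802.5 and 4309.5 bp with peaks of at least 500 and 1000 bp, and 4180.5 bp without peaks at ends of other genes. Without Elovl6 it was 5152 bp (chosen after the data were seen). For the alternatives other than the length inside the gene, no median over all genes was computed. The median number of peaks was 3 and 6 with those narrower and wider flanks, and 3.5 with peaks at most 1000 bp apart merged. Members in a domain fell to 1 with stitching at 5000 bp and to 1 with gene-end peaks left out. Under the alternatives run for them, members with a window peak numbered 35 or 36, and those with a marked start stayed at 27. Those with a widest peak at an end ranged from 19 to 21, and those with a CCAAT box from 19 to 23. Other lipid genes with a gene-end peak ranged from 20 to 23. Of these counts, the share of all genes was recounted only for the CCAAT box in the 100 bases before the start. No paired analysis was possible because the list holds no value per library, and leaving out a replicate was not possible for the same reason. Depth is unknown, so a gene without a peak may still carry weak acetylation.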
